A study of Mus musculus with 48 samples.

Results

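Reactive astrocyte genes are those that astrocytes, the star-shaped glia of the brain, express more strongly after injury or inflammation. The 9 described here are Gfap, Vim, Serpina3n, Lcn2, Cd44, Osmr, S1pr3, Timp1 and Cp, taken by gene symbol from a table of 54532 genes, and each symbol matched 1 row. Bulk RNA sequencing was run on brain hemisphere and on hippocampus of male wild-type C57Bl6 mice, whose age the labels do not give. All mice carried an osmotic minipump for 2 weeks. In the angiotensin II group the pump delivered angiotensin II, a hormone that constricts vessels and raises blood pressure, at 0.7 mg/kg per day. In the angiotensin II + hydralazine group the mice also received 50 mg/kg hydralazine, a vasodilator that lowers blood pressure, in the drinking water. The vehicle + hydralazine group had saline (0.9%) in the pump with the same hydralazine, and the vehicle group had saline in the pump alone. The labels class both angiotensin II groups as hypertensive and both vehicle groups as controls. Each of the 4 treatments had 6 libraries per region, which makes 8 groups and 48 libraries. The labels do not say that each library is a separate mouse, nor whether a mouse gave both regions, so the p-values reflect library-to-library spread, which may be partly technical.

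Astrocytes feed neurons, wrap blood vessels and clear transmitter, and after injury they thicken their processes and change their gene expression. Interleukin-6 family cytokines acting through the shared receptor subunit gp130 and the transcription factor STAT3, and TNF and interleukin-1 acting through NF-kB, are known inducers of this state. The 9 genes cover its cytoskeleton (Gfap, Vim), its secreted proteins (Serpina3n, Lcn2, Timp1, Cp) and its cell surface receptors (Cd44, Osmr, S1pr3). None of them belongs to astrocytes alone: ependymal cells, endothelium, neutrophils, meningeal cells and choroid plexus also express some of them.

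The values are FPKM, fragment counts scaled to transcript length and library size, which can be compared between genes because they are per length. Read totals recovered from the steps of the FPKM values ran from 15.8 to 23.5 M in hemisphere libraries and from 1.21 to 21.0 M in hippocampal ones. Of the 24 hippocampal libraries, 6 listed only 7805 to 15684 genes above 0, against 18914 to 23044 in the other 18 and 23161 to 25610 in hemisphere libraries. These few-gene libraries were vehicle replicates 3 and 4, vehicle + hydralazine replicates 3 and 4, angiotensin II replicate 3 and angiotensin II + hydralazine replicate 5. Vehicle + hydralazine replicate 3 had 1.21 M reads. The others of the 6 had 12.7 to 16.7 M reads, against 15.4 to 21.0 M in the other 18 hippocampal libraries. The region labels held: summed FPKM of 8 hippocampal neuron genes was 321 to 490 in hippocampus and 71.4 to 88.8 in hemisphere. Summed astrocyte identity genes (13 genes) reached 1012 to 1448 in hippocampus and 1495 to 1957 in hemisphere, and no library lacked astrocyte RNA. In such bulk samples, fewer cells of a type and less RNA per cell cannot be told apart.

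The levels of the 9 genes spanned a wide range. In hippocampus the medians over 24 libraries were 112 FPKM for Gfap, 39.9 for Serpina3n, 12.3 for Vim, 1.86 for S1pr3 and 0.820 for Cp. Lcn2 (0.522), Cd44 (0.310), Timp1 (0.301) and Osmr (0.226) stood under 1 FPKM there. In hemisphere the order of the medians was Gfap (76.5 FPKM), Vim (12.4), Serpina3n (10.2), S1pr3 (2.05), Cp (1.58), Timp1 (0.710), Cd44 (0.703), Lcn2 (0.424) and Osmr (0.294). Gfap in both regions, and Serpina3n and Vim in hippocampus, lay clear of the next gene down over all libraries, as did Serpina3n in hemisphere. The other neighbours in the order, from Vim and Serpina3n in hemisphere to Lcn2 and Osmr there, had ranges that overlapped. All 21 values listed at 0, among 432 values of the 9 genes, lay in the 6 few-gene libraries.

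**Figure D1:**
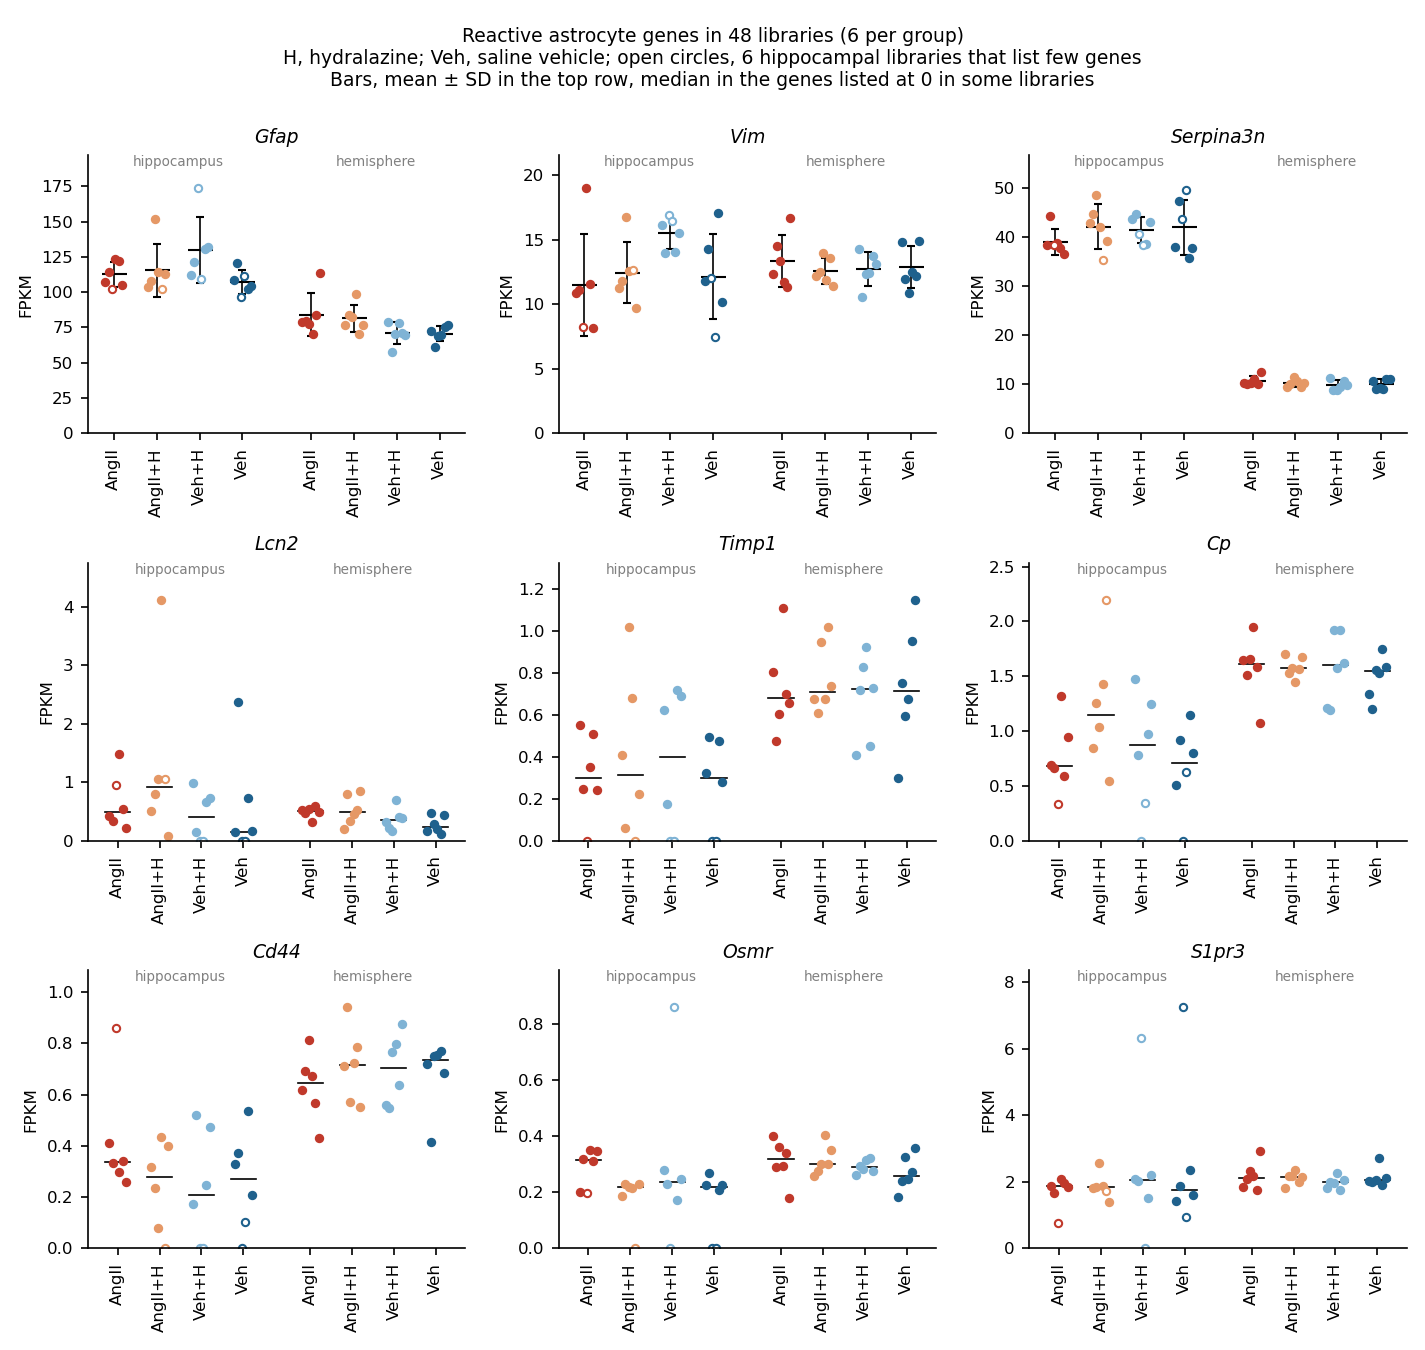
FPKM of each of the 9 genes in each library (1 point per library, 6 per group), with hippocampal groups left of hemisphere groups; bars mark mean ± SD for Gfap, Vim and Serpina3n and the median for the other 6, and open circles are the 6 few-gene libraries. Serpina3n lies between 35.3 and 49.5 FPKM in hippocampus and between 8.86 and 12.4 FPKM in hemisphere, while within a region the 4 treatments overlap in every panel.

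The promoters of Gfap and Serpina3n, the genes that carried the regional difference described further on, are shown because they hold matches to sites of the inducing factors. The windows run from 250 bases before to 50 bases after the transcription start, from RefSeq on GRCm38.p6, at chr11:102897151-102897450 on the minus strand for Gfap and chr12:104406458-104406757 on the plus strand for Serpina3n. All 9 genes matched that table, with 10 windows between them. Capitals mark the match to TTCNNNGAA (STAT) in Gfap and to the NF-kB pattern in Serpina3n, which is GGG and TTTCC with 2 bases of any kind between them.
Gfap: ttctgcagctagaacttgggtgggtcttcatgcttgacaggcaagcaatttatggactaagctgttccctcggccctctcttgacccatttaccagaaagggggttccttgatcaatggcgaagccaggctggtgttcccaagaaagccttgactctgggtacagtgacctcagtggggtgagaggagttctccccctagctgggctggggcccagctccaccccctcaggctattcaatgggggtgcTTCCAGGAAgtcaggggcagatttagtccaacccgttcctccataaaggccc
Serpina3n: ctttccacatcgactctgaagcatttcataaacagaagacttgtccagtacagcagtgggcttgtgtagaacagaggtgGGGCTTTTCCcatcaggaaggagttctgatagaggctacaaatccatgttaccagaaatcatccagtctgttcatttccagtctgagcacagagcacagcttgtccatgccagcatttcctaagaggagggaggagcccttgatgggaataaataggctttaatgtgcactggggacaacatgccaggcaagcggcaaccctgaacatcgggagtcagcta
Searched on both strands, TTCNNNGAA was in 8.30% of 32851 promoters and, of the windows of the 9 genes, in that of Gfap alone. The NF-kB pattern was in 1.63% of promoters and in those of Serpina3n and Vim. The AP-1 letters TGANTCA were in 7.81% of promoters and in those of Osmr and Cp. The letters describe the windows and say nothing of whether a factor binds there.

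Angiotensin II was compared with vehicle in hemisphere to ask which of these genes moved with the pressor infusion. None of the 8 genes tested passed the threshold (limma on log2(FPKM + 0.5), Benjamini-Hochberg adjusted p under 0.05 over 16747 genes), where 0.0717% of all genes did. Osmr was below the filter of 0.5 FPKM in at least 6 libraries. Gfap and Lcn2 had an unadjusted p under 0.05, as had 1548 genes in all (9.24%). The median log2 fold change of the 8 was 0.05, against 0.00 over all genes, and 7 of the 8 were above 0. Without angiotensin II replicate 6 that median was 0.03, against 0.01 over all genes, with 5 of the 8 above 0. In that fit 1 of the 8 had an unadjusted limma p under 0.05, where 7.37% of all genes had. This scale understates the change of low genes.

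Gfap encodes glial fibrillary acidic protein, the main intermediate filament of astrocytes, at 11:102887336-102900912 on the minus strand (GRCm38, the build of all gene positions here). In hemisphere its lowest, median and highest levels were 70.7, 79.3 and 113.9 FPKM under angiotensin II and 61.2, 71.0 and 76.4 FPKM under vehicle. In angiotensin II libraries 5 of 6 lay above the highest vehicle library and 1 overlapped. The 6 angiotensin II libraries averaged 84.0 ± 15.2 FPKM and the 6 vehicle libraries 70.6 ± 5.51 FPKM (SD). The log2 fold change was 0.24 ± 0.10 (SE; 95% interval 0.04 to 0.44), with a limma p of 0.0230 and an adjusted p of 0.515. The highest library, angiotensin II replicate 6, also had the highest summed astrocyte identity genes (1957 FPKM) and microglia genes (213 FPKM) of the hemisphere libraries. Its mitochondrial share of reads was 2.77%, against 5.70% to 7.22% in the other 23, and the part of these differences in the Gfap value was not tested. Without it the log2 fold change was 0.15 (limma adjusted p = 0.731).

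Vim encodes vimentin, the filament partner of Gfap in astrocytes and a filament of endothelial, mesenchymal and ependymal cells (2:13573927-13582826, plus strand). It read 11.3, 12.9 and 16.7 FPKM (lowest, median, highest) under angiotensin II and 10.9, 12.3 and 14.9 FPKM under vehicle. The ranges overlapped over most of their width. The log2 fold change was 0.05 ± 0.09 (SE), with a limma adjusted p of 0.860. Without angiotensin II replicate 6 it was -0.02.

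Among the secreted proteins, Serpina3n is a serine protease inhibitor of the alpha-1-antichymotrypsin family (12:104406729-104414329, plus strand). In hemisphere it had 9.98, 10.2 and 12.4 FPKM (lowest, median, highest) under angiotensin II and 8.97, 9.99 and 11.1 FPKM under vehicle. The groups overlapped and the log2 fold change was 0.09 ± 0.07 (SE; limma adjusted p = 0.653). Lcn2, lipocalin-2, is an iron-siderophore binding protein of reactive astrocytes and of neutrophils (2:32384633-32388252, minus strand). It had 0.322, 0.505 and 0.604 FPKM (18 to 28 reads) under angiotensin II and 0.114, 0.244 and 0.470 FPKM (6 to 25 reads) under vehicle. In angiotensin II libraries 5 of 6 lay above the highest vehicle library. The log2 fold change of Lcn2 was 0.37 ± 0.16 (SE), with a limma p of 0.0341 and an adjusted p of 0.523. With a pseudocount of 0.1 it was 0.73. The summed neutrophil and monocyte genes, of which 5 of 9 were tested and none passed, had a median log2 fold change of 0.37 in the same comparison, and their part in the Lcn2 values was not tested.

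The other 2 secreted proteins did not pass the test in this comparison (limma adjusted p of 0.992 for Timp1 and 0.872 for Cp). Timp1, an inhibitor of matrix metalloproteinases (X:20870166-20874735, plus strand), had 0.476, 0.679 and 1.11 FPKM under angiotensin II and 0.298, 0.715 and 1.15 FPKM under vehicle. That rests on 5 to 22 reads a library, and the ranges overlapped almost fully. Cp, ceruloplasmin, the copper ferroxidase that astrocytes anchor at their surface (3:19957054-20009145, plus strand), had 1.07, 1.61 and 1.95 FPKM under angiotensin II and 1.20, 1.54 and 1.75 FPKM under vehicle.

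The receptors gave no call either. Cd44, the hyaluronan receptor (2:102811141-102901665, minus strand), had 0.431, 0.644 and 0.814 FPKM under angiotensin II and 0.417, 0.735 and 0.771 FPKM under vehicle, and its log2 difference of -0.06 ± 0.11 (SE) had an adjusted p of 0.838 by limma. Osmr, the oncostatin M receptor subunit that pairs with gp130 (15:6813577-6874969, minus strand), had 0.180, 0.318 and 0.400 FPKM under angiotensin II and 0.184, 0.260 and 0.359 FPKM under vehicle. S1pr3, a receptor for sphingosine-1-phosphate (13:51408639-51422797, plus strand), had 1.76, 2.13 and 2.94 FPKM under angiotensin II and 1.92, 2.04 and 2.71 FPKM under vehicle (limma adjusted p = 0.947). In each of the 3 receptors the ranges of the groups overlapped almost fully. None of the 9 genes had groups without overlap in this comparison, where 0.561% of genes had.

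**Figure D2:**
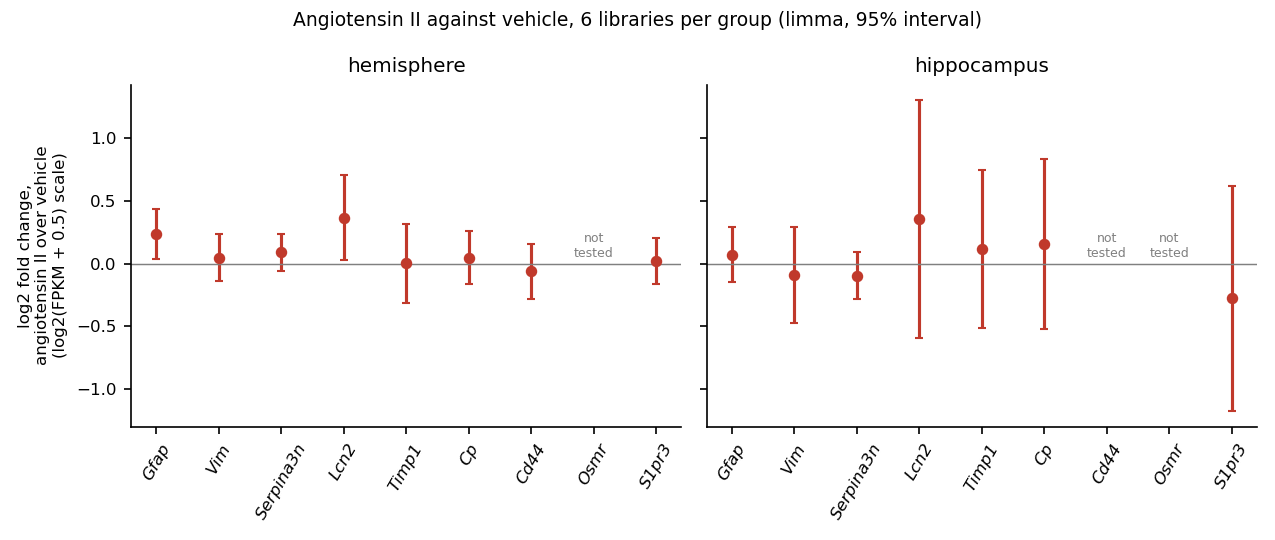
Log2 fold change of angiotensin II over vehicle with its 95% interval for each gene that passed the filter, in hippocampus and in hemisphere (log2(FPKM + 0.5) scale; limma, 6 libraries per group). Gfap (0.24) and Lcn2 (0.37) in hemisphere are the genes whose intervals leave out 0, and neither passed after adjustment over all genes; in hippocampus every interval includes 0.

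In hippocampus, angiotensin II against vehicle gave 0 calls among 15267 genes by limma (percent called 0%), with 210 genes (1.38%) at an unadjusted p under 0.05. Of the 9 genes, 7 were tested and none had an unadjusted p under 0.05, while Cd44 and Osmr were below the filter. The median log2 fold change of the 7 was 0.07, against 0.04 over all genes. Gfap had 102.5, 111.1 and 123.4 FPKM (lowest, median, highest) under angiotensin II and 96.2, 106.5 and 120.8 FPKM under vehicle. Its log2 fold change was 0.07 ± 0.11 (SE; 95% interval -0.15 to 0.29). Serpina3n had 36.6, 38.4 and 44.3 FPKM under angiotensin II and 35.8, 40.8 and 49.5 FPKM under vehicle, with a log2 fold change of -0.10 ± 0.09 (SE). Vim had 8.15, 10.95 and 19.0 FPKM under angiotensin II and 7.50, 11.9 and 17.1 FPKM under vehicle. The groups overlapped for all 3 genes. The difference between the regions in the angiotensin II response was tested directly: 0 of 17643 genes passed by limma, 516 (2.92%) had an unadjusted p under 0.05, and none of the 8 genes tested here was among them (unadjusted p of 0.259 for Gfap and 0.118 for Serpina3n).

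Lcn2 varied widely in hippocampus. It ran from 0.225 to 1.49 FPKM under angiotensin II and from 0 to 2.37 FPKM under vehicle, where the 2 few-gene libraries were listed at 0. Under angiotensin II + hydralazine it ran from 0.0757 to 4.11 FPKM and under vehicle + hydralazine from 0 to 0.994 FPKM. S1pr3 ran from 0.769 to 2.09 FPKM under angiotensin II and from 0.946 to 7.24 FPKM under vehicle, where the 0.769, the 0.946 and the 7.24 were few-gene libraries. Without the few-gene libraries S1pr3 was 1.67 to 2.09 FPKM under angiotensin II and 1.41 to 2.37 FPKM under vehicle.

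Adding hydralazine to angiotensin II moved none of the 9 genes past the threshold. In hemisphere, angiotensin II + hydralazine against angiotensin II gave 0 calls by limma (percent called 0%; 760 genes, 4.54%, at an unadjusted p under 0.05, none of them among the 8 genes tested). Gfap had 70.5, 79.5 and 98.4 FPKM (lowest, median, highest) under both drugs, that is angiotensin II + hydralazine, and 70.7, 79.3 and 113.9 FPKM under angiotensin II. The groups overlapped over most of their range. Against vehicle, both drugs also gave 0 calls (872 genes, 5.21%, at an unadjusted p under 0.05; with library weights 102 genes were called, none of the 8 tested here). Gfap lay above the highest vehicle library in 5 of 6 libraries, with a limma p of 0.0504 and an adjusted p of 0.951. Lcn2 had 0.198, 0.495 and 0.858 FPKM under both drugs and 0.114, 0.244 and 0.470 FPKM under vehicle, with a limma p of 0.0266 and an adjusted p of 0.903. The comparisons of angiotensin II and of both drugs with vehicle share the vehicle libraries.

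Hydralazine without angiotensin II was the background of that drug. In hemisphere, vehicle + hydralazine against vehicle gave 0 calls by limma (percent called 0%; 279 genes, 1.67%, at an unadjusted p under 0.05, none of the 8 tested). Gfap had 57.5, 70.8 and 78.9 FPKM under vehicle + hydralazine and 61.2, 71.0 and 76.4 FPKM under vehicle, and the groups overlapped fully. In hippocampus the same comparison gave 0 calls (861 genes, 5.64%, at an unadjusted p under 0.05), of which Gfap was 1. It had 109.5, 126.1 and 173.4 FPKM under vehicle + hydralazine and 96.2, 106.5 and 120.8 FPKM under vehicle, with a limma p of 0.0214 and an adjusted p of 0.677. The groups overlapped, and the 173.4 was few-gene library 3, which had 1.21 M reads. Vim had 13.9, 15.8 and 16.9 FPKM under vehicle + hydralazine and 7.50, 11.9 and 17.1 FPKM under vehicle, with a limma p of 0.0531 and an adjusted p of 0.677. Both drugs against hydralazine and the interaction of the drugs gave 0 calls in each region as well, with 501 and 461 genes at an unadjusted p under 0.05 in hemisphere and 911 and 366 in hippocampus, none of them among the 9 genes. In hippocampus, both drugs against angiotensin II (252 genes) and against vehicle (303 genes) gave 0 calls and none of the 9 genes at that p.

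The regions themselves differed for several of the 9 genes, in all 4 treatments for Serpina3n and Gfap. Hippocampus was compared with hemisphere in each treatment over 17643 genes, of which 37.0% were called under angiotensin II, 42.4% under both drugs, 50.7% under vehicle + hydralazine and 42.2% under vehicle. Of the 8 genes tested (all but Osmr), 4, 4, 4 and 5 were called in those treatments, so their share was near to or somewhat above that of all genes. Called higher in all 4 treatments were Serpina3n and Gfap, as were 8.42% of all genes. In single treatments 12.4%, 13.6%, 12.4% and 12.7% of all genes were called higher. Cd44, Timp1 and Cp were called lower in 3 of the 4 treatments each, where 24.6%, 28.8%, 38.4% and 29.5% of all genes were called lower. The median log2 fold change over all genes was itself below 0, at -0.14, -0.20, -0.37 and -0.21 in those treatments, and quantile scaling moved it to between 0.04 and 0.05. Median-of-ratios scaling, which divides each library by 1 factor, left it at -0.14, -0.20, -0.36 and -0.21. Quantile scaling also turned 3 neuron genes called higher in hippocampus under vehicle to below 0.

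Serpina3n had the largest regional difference of the 8 genes tested. Under angiotensin II it had 36.6, 38.4 and 44.3 FPKM (lowest, median, highest) in hippocampus and 9.98, 10.2 and 12.4 FPKM in hemisphere. Under vehicle it had 35.8, 40.8 and 49.5 FPKM in hippocampus and 8.97, 9.99 and 11.1 FPKM in hemisphere. All 24 hippocampal libraries, from 35.3 to 49.5 FPKM, lay above all 24 hemisphere libraries, from 8.86 to 12.4 FPKM, as was so for 1.42% of all genes (4.22% without the 6 few-gene libraries). The fold on the FPKM + 0.5 scale was 3.54 under angiotensin II, 3.95 under both drugs, 4.07 under vehicle + hydralazine and 4.03 under vehicle. On the log2 scale these were 1.83, 1.98, 2.03 and 2.01 (SE 0.08 each), with limma adjusted p-values of 2.07e-22, 8.97e-24, 4.88e-24 and 6.89e-24. Over all alternative settings the log2 fold change stayed between 1.78 and 2.36. Of the 2015 stretches of 50 bases in its transcripts, 139 (6.90%) are shared with 7 other Serpina3 genes, so some reads could be assigned to either. The highest median among these 7 was that of Serpina3g in hemisphere (0.0270 FPKM in hippocampus and 0.531 FPKM in hemisphere).

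Gfap was higher in hippocampus by a smaller factor. Under both drugs it had 102.2, 110.2 and 151.8 FPKM (lowest, median, highest) in hippocampus and 70.5, 79.5 and 98.4 FPKM in hemisphere. Under vehicle + hydralazine it had 109.5, 126.1 and 173.4 FPKM in hippocampus and 57.5, 70.8 and 78.9 FPKM in hemisphere, and under vehicle 96.2 to 120.8 FPKM in hippocampus and 61.2 to 76.4 FPKM in hemisphere. The regions did not overlap in these 3 treatments, where 13.6%, 6.77% and 10.4% of all genes were higher without overlap. Under angiotensin II only 3 of 6 hippocampal libraries lay above the highest hemisphere library, replicate 6 (7.19% of genes were higher without overlap there). The log2 fold changes were 0.43 under angiotensin II, 0.49 under both drugs, 0.86 under vehicle + hydralazine and 0.60 under vehicle (SE 0.10 each; limma adjusted p = 0.000618, 9.70e-05, 2.25e-09 and 4.71e-06). Under quantile scaling these became 0.09, -0.0015, 0.42 and 0.17, of which only that under vehicle + hydralazine was called (limma adjusted p = 0.512, 0.993, 0.000924 and 0.183), so the sign under both drugs turned. Without the 6 few-gene libraries the values were 0.46, 0.53, 0.81 and 0.62, all called. Under median-of-ratios scaling the log2 fold changes of Gfap were 0.43, 0.49, 0.86 and 0.60.

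**Figure D3:**
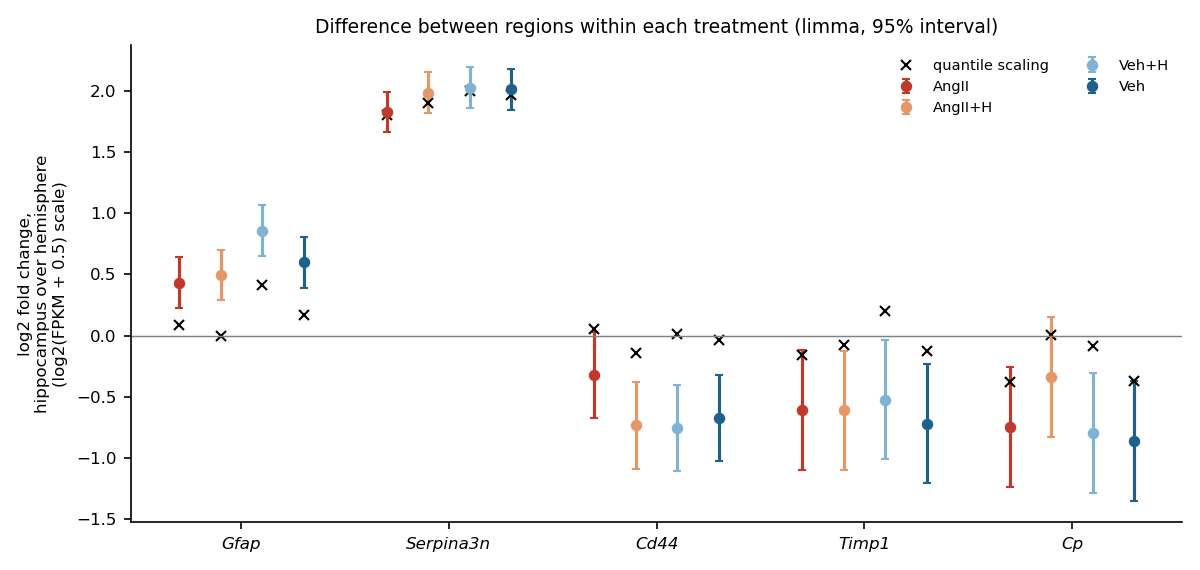
Log2 fold change of hippocampus over hemisphere for 5 genes in each of the 4 treatments with 95% intervals (log2(FPKM + 0.5) scale; limma, 6 libraries per group), and crosses for the same value under quantile scaling. Serpina3n stays between 1.83 and 2.03 and its crosses lie close by, whereas the crosses of Gfap fall to between -0.0015 and 0.42 and those of Cd44, Timp1 and Cp lie nearer to 0, with some above it.

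Gfap and Serpina3n were also set against astrocyte RNA. The 13 astrocyte identity genes were lower in hippocampus on the whole: under vehicle 1 was called higher (Slc1a2, a glutamate transporter, log2 fold change 0.32) and 8 lower, from Aldh1l1 (-1.02) and Fgfr3 (-0.85) to Glul (-0.29). Under quantile scaling 8 of these 9 calls remained, all lower, and Slc1a2 turned to -0.18. The median log2 fold change of the 13 genes under vehicle went from -0.32 to -0.81 with that scaling. Per 1000 FPKM of their sum, Gfap was 85.3 ± 5.12 in hippocampus and 49.2 ± 5.99 in hemisphere under angiotensin II. The same ratio was 87.7 ± 12.4 in hippocampus and 49.6 ± 5.22 in hemisphere under both drugs. Under vehicle + hydralazine it was 105 ± 33.6 in hippocampus and 44.0 ± 3.64 in hemisphere, and under vehicle 82.0 ± 8.42 in hippocampus and 43.6 ± 2.12 in hemisphere (SD, n = 6 each). The regions did not overlap in any treatment (exact permutation test, two-sided p = 0.0022 each, the smallest that 924 regroupings give). Serpina3n gave 29.7 ± 3.07 in hippocampus and 6.27 ± 0.244 in hemisphere under angiotensin II, with the same p in each treatment. For Vim the ratio differed between treatments. Under vehicle + hydralazine it was 12.4 ± 2.30 in hippocampus and 7.89 ± 0.487 in hemisphere, without overlap (exact permutation p = 0.0022, again the smallest possible). Under both drugs it was 9.46 ± 1.62 in hippocampus and 7.67 ± 0.756 in hemisphere, with overlap (exact permutation p = 0.0238). Under vehicle it was 9.20 ± 2.12 in hippocampus and 7.94 ± 0.789 in hemisphere (exact permutation p = 0.268), and under angiotensin II 8.65 ± 2.78 in hippocampus and 7.84 ± 0.956 in hemisphere (exact permutation p = 0.675), both with overlap. In hemisphere, angiotensin II libraries had 49.2 ± 5.99 of Gfap per 1000 FPKM and vehicle libraries 43.6 ± 2.12 (exact permutation p = 0.0541). The same ratio of Lcn2 was 0.293 ± 0.0661 in angiotensin II libraries and 0.175 ± 0.0961 in vehicle libraries (exact permutation p = 0.0346). This ratio was chosen after the data had been seen, and 54 such tests were run with no adjustment. The sum itself was 1012 to 1448 FPKM in hippocampus and 1495 to 1957 FPKM in hemisphere. A gene with equal FPKM in both regions therefore has a higher ratio in hippocampus. The share of all genes whose ratio differed between the regions without overlap was not worked out.

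**Figure D4:**
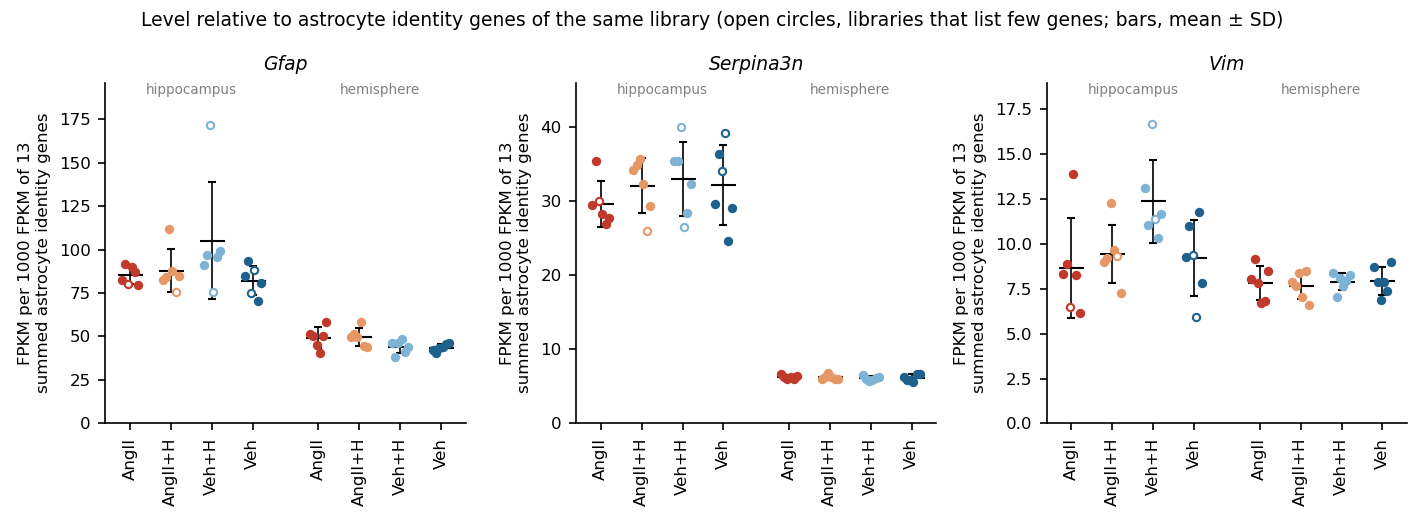
Gfap, Serpina3n and Vim per 1000 FPKM of the summed 13 astrocyte identity genes, 1 point per library, with hippocampal groups left of hemisphere groups and mean ± SD for 6 libraries each. Gfap averages 82.0 to 105 in hippocampal groups and 43.6 to 49.6 in hemisphere groups. A common factor for a library cancels in this ratio. The ratio was not worked out under quantile scaling, where the log2 fold change of Gfap itself shrinks and turns to -0.0015 under both drugs.

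Vim did not pass the regional test in any treatment (limma adjusted p from 0.114 to 0.898). Under vehicle + hydralazine its log2 fold change was 0.28, and it passed with library weights (0.23, adjusted p = 0.0498) and when only the groups compared were fitted (adjusted p = 0.0421). Under angiotensin II it was -0.25, and without hippocampal replicate 4 it was -0.40 (limma adjusted p = 0.0169). Under vehicle it had 7.50, 11.9 and 17.1 FPKM (lowest, median, highest) in hippocampus and 10.9, 12.3 and 14.9 FPKM in hemisphere, where the log2 fold change was -0.11 ± 0.15 (SE) at an adjusted p of 0.571 by limma. Its hippocampal values were more spread, and they moved with ependymal and choroid plexus genes. Ependymal genes mark the ciliated lining of the ventricles. Summed over 8 such genes, ependymal FPKM ran from 8.19 to 113 in hippocampus and from 13.6 to 25.4 in hemisphere. Over the 18 hippocampal libraries that are not few-gene ones, Vim and this sum had a Pearson r of 0.867 (permutation p = 1e-05, the smallest that 100000 permutations give; adjusted over 16 relations 0.00016) and a Spearman rho of 0.837 (permutation p = 4e-05, adjusted 0.00064). Without the 2 libraries farthest from the median r was 0.823, and within treatments it was 0.864. Vim also moved with the summed choroid plexus genes in these 18 libraries, with a Pearson r of 0.693 and a Spearman rho of 0.752 (permutation p = 0.00057 each, adjusted 0.00456 each). That r was 0.809 without the 2 farthest libraries and 0.820 within treatments. In the 24 hemisphere libraries Vim had an r of 0.309 with the choroid plexus sum (permutation p = 0.141, adjusted 0.292). With the ependymal sum its r there was 0.410 (permutation p = 0.0453, adjusted 0.181). Serpina3n had an r of 0.576 with the ependymal sum in hemisphere (permutation p = 0.00353, adjusted 0.0188; rho 0.580) and 0.137 in hippocampus. For Gfap and the ependymal sum r was 0.380 in hippocampus and 0.293 in hemisphere (adjusted permutation p = 0.292 in both). In hippocampus this r was 0.639 without the 2 farthest libraries and 0.456 within treatments, and rho was 0.494 (permutation p = 0.0381, adjusted 0.152). In hemisphere it was 0.161 without the 2 farthest libraries and 0.427 within treatments, and rho was 0.106. These relations were looked for after the data had been seen, and what links Vim to the ependymal and choroid plexus genes was not tested.

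**Figure D5:**
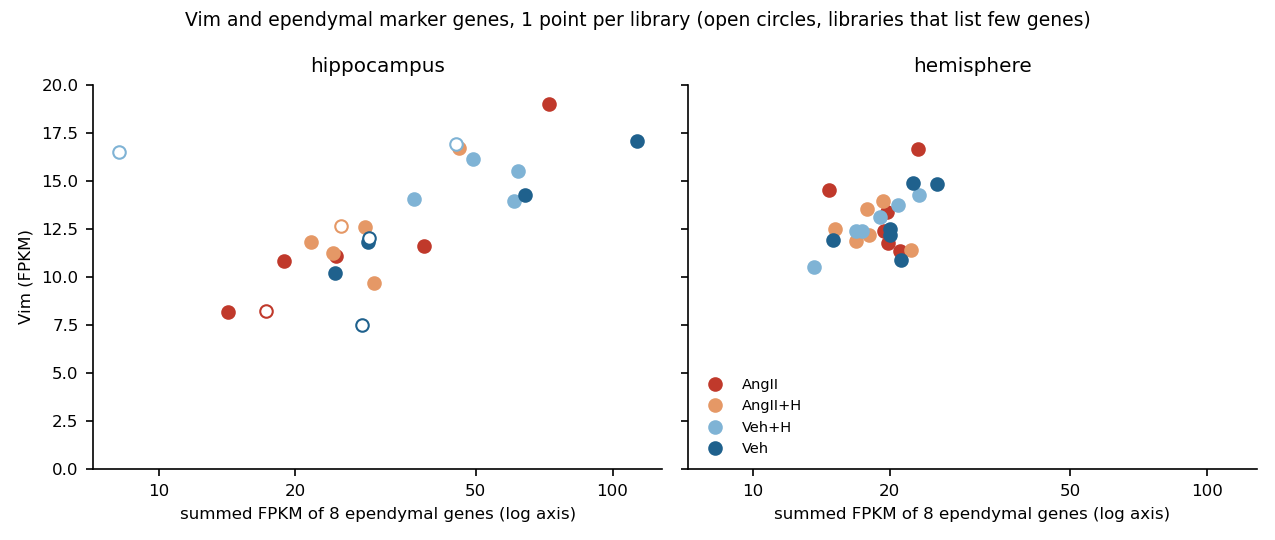
Vim FPKM against the summed FPKM of 8 ependymal genes (log axis), 1 point per library, hippocampus left and hemisphere right; open circles are few-gene libraries. Vim rises with the ependymal sum in the 18 other hippocampal libraries (r = 0.867), and more loosely in the 24 hemisphere libraries (r = 0.410).

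Cd44, Timp1 and Cp, all with hippocampal medians under 1 FPKM, were lower in hippocampus where they were called, and none of these calls held under quantile scaling of all libraries. Under median-of-ratios scaling all 5 calls under vehicle among the 8 genes tested, 3 of them lower, were kept. Cd44 had log2 fold changes of -0.32 under angiotensin II, -0.73 under both drugs, -0.75 under vehicle + hydralazine and -0.67 under vehicle (limma adjusted p = 0.148, 0.000597, 0.000371 and 0.00152). Under vehicle it had 0, 0.270 and 0.535 FPKM (lowest, median, highest) in hippocampus and 0.417, 0.735 and 0.771 FPKM in hemisphere. These groups overlapped. The regions did not overlap under both drugs (0 to 0.437 against 0.554 to 0.941 FPKM) or under vehicle + hydralazine (0 to 0.520 against 0.550 to 0.875 FPKM). The share of all genes lower without overlap in these treatments is not given here. Under angiotensin II, hippocampal replicate 3, a few-gene library, had 0.862 FPKM against 0.261 to 0.413 in the other 5, and without it the log2 fold change was -0.44 (limma adjusted p = 0.0448). Quantile scaling left Cd44 without a call in any treatment, with values of 0.05, -0.14, 0.01 and -0.04.

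Cp had 0.336, 0.680 and 1.32 FPKM in hippocampus and 1.07, 1.61 and 1.95 FPKM in hemisphere under angiotensin II. Under vehicle it had 0, 0.713 and 1.15 FPKM in hippocampus and 1.20, 1.54 and 1.75 FPKM in hemisphere, without overlap, as were 21.3% of all genes in that direction. Its log2 fold changes were -0.75 under angiotensin II, -0.34 under both drugs, -0.80 under vehicle + hydralazine and -0.86 under vehicle (limma adjusted p = 0.0128, 0.273, 0.00574 and 0.00359). Under quantile scaling they were -0.37, 0.0059, -0.08 and -0.37, none of them called. The call under angiotensin II was also lost with a pseudocount of 0.1 (-1.03, adjusted p = 0.0763), and that under vehicle + hydralazine when only the groups compared were fitted (adjusted p = 0.0674). Under both drugs a call was gained with library weights (-0.39, adjusted p = 0.00418). Without the 6 few-gene libraries Cp was -0.64, -0.48, -0.36 and -0.59, all called, and with quantile scaling of the remaining libraries the call under angiotensin II held (-0.38, limma adjusted p = 0.0108). Choroid plexus, which also expresses Cp, was uneven between libraries: 11 of its genes summed to 22.1 to 2077 FPKM in hippocampus and 330 to 919 FPKM in hemisphere, and 8 of the 10 tested were called lower in hippocampus under vehicle. Its part in the regional difference of Cp was not tested. On the opposite strand, Hps3 overlaps 108 of 9566 exon bases of Cp (1.13%), and whether the counting used strand is not given in the sources used here.

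Timp1 had 0, 0.301 and 0.492 FPKM in hippocampus and 0.298, 0.715 and 1.15 FPKM in hemisphere under vehicle, a log2 fold change of -0.72 (limma adjusted p = 0.0139). It was also called under angiotensin II (-0.61, adjusted p = 0.0436) and both drugs (-0.61, adjusted p = 0.0381), and not under vehicle + hydralazine (-0.52, adjusted p = 0.0665). These groups overlapped, and the values rest on 0 to 17 reads a library in hippocampus. The angiotensin II call was lost without any one of hemisphere replicates 1, 4, 5 and 6 or hippocampal replicates 2, 3, 4 and 6 (adjusted p 0.0519 to 0.143). The call under both drugs was lost without any one of hemisphere replicates 3, 5 and 6 or hippocampal replicates 2, 5 and 6 (adjusted p 0.0514 to 0.133). Under vehicle + hydralazine a call was gained without hemisphere replicate 1 or hippocampal replicate 1, 5 or 6 (adjusted p 0.0284 to 0.0487). With the replicate number as a block, the calls under angiotensin II (adjusted p = 0.0616) and both drugs (adjusted p = 0.0537) were also lost. Without the 6 few-gene libraries the call under vehicle was lost (-0.44, adjusted p = 0.0563). Quantile scaling gave -0.16, -0.08, 0.21 and -0.13, none called. Timp1 lies within Syn1, on the opposite strand and with 0 shared exon bases; the mean level of Syn1, a neuronal synapsin, was 220 FPKM in hippocampus and 165 FPKM in hemisphere.

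Lcn2 and S1pr3 were not called between the regions in any treatment (limma adjusted p from 0.254 to 0.963 for Lcn2 and from 0.480 to 0.974 for S1pr3). Under quantile scaling Lcn2 was called higher in hippocampus under both drugs (log2 fold change 0.95, limma adjusted p = 0.00945, against 0.51 as deposited) and under vehicle (0.73, adjusted p = 0.0466, against 0.15). With the few-gene libraries also left out these were 0.89 (adjusted p = 0.0176) and 0.94 (adjusted p = 0.0182). With library weights S1pr3 was called lower in hippocampus under vehicle (-0.28, limma adjusted p = 0.0185, against -0.02 without weights). Osmr stayed below the filter, with 0.199 to 0.353 FPKM in hippocampus and 0.180 to 0.400 FPKM in hemisphere under angiotensin II. Under both drugs it had 0 to 0.230 FPKM in hippocampus and 0.257 to 0.404 FPKM in hemisphere, without overlap. The share of all genes lower without overlap in that treatment is not given here. Under vehicle it was 21.3% of the genes that passed the filter, which leave out Osmr. With no filter Osmr was not called under both drugs (log2 fold change -0.27, limma adjusted p = 0.153). Osmr overlapped under vehicle (0 to 0.269 against 0.184 to 0.359 FPKM) and under vehicle + hydralazine (0 to 0.860 against 0.264 to 0.324 FPKM).

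The other genes of the reactive state and of its inducing pathways were set beside the 9 for hemisphere, angiotensin II against vehicle, and none of them was called. Of 12 genes of the A1 (inflammation-linked) astrocyte list 10 were tested, with a median log2 fold change of 0.22, 9 above 0 and 4 at an unadjusted p under 0.05, where 9.24% of all genes were. The summed A1 genes reached 96.7 FPKM in angiotensin II replicate 6 and 59.1 to 68.9 FPKM in the other angiotensin II libraries, against 54.0 to 63.8 FPKM in vehicle libraries. Without that replicate the median of the list was 0.15, with 10 above 0 and 4 at an unadjusted p under 0.05 (7.37% of all genes). The values furthest from 0 in that list were Serping1, the C1 esterase inhibitor (0.33, limma adjusted p = 0.459), and H2-T23, a class I MHC gene (0.26). Of the A2 (ischaemia-linked) list 7 of 12 were tested, with a median of 0.04 and 5 above 0, including Emp1 (0.19) and S100a10 (0.13). The gp130 and STAT3 pathway had 8 of 13 tested, a median of 0.01 and 4 above 0, with Stat3 at 0.09 and the kinase Tyk2 at 0.10. The TNF, interleukin-1 and NF-kB list had 8 of 11 tested, a median of -0.0026 and 4 above 0, with C1qa, a complement gene of microglia, at 0.26 and Nfkbia at -0.09. The 5 filament partners of Gfap and Vim had a median of 0.01, with desmin (Des) at 0.15 and Synm at -0.04. The metalloproteinases with their inhibitors and hyaluronan enzymes had 7 of 10 tested and a median of 0.02, with Timp4 at 0.19 and Mmp9 at -0.16. Of 2 other pan-reactive genes tested of 4, Aspg was at 0.37 (limma adjusted p = 0.407) and Hspb1 at -0.21. The 13 astrocyte identity genes had a median of 0.06 with 7 above 0, the water channel Aqp4 being at -0.31 and Sox9 at -0.28. Among markers of other cells, microglia genes had a median of 0.09 (10 tested, 7 above 0; Aif1 0.40, P2ry12 -0.39) and choroid plexus genes a median of -0.27 (10 tested, 0 above 0; Otx2 -0.43, Ttr -0.36). The neutrophil genes furthest from 0 were S100a9 (0.65) and S100a8 (0.61).

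In hippocampus none of these lists held a call for angiotensin II against vehicle. The medians were 0.12 for A1 (11 tested, 6 above 0), -0.12 for A2 (8 tested, 3 above 0), -0.05 for the gp130 and STAT3 pathway (7 tested, 3 above 0) and -0.02 for the TNF, interleukin-1 and NF-kB list (7 tested, 3 above 0), against 0.04 over all genes.

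Between the regions under vehicle the pathway that carries Osmr signals held more genes called lower than higher. All genes leaned the same way, with a median log2 fold change of -0.21 and the shares given below. Of 8 gp130 and STAT3 genes tested 4 were called lower in hippocampus, namely Il6st, which encodes gp130 (log2 fold change -1.01), its feedback inhibitor Socs3 (-0.92), Tyk2 (-0.84) and Stat3 (-0.55), and 1 higher, the kinase Jak1 (0.30); the median was -0.38. In the metalloproteinase list 4 of 7 were lower and none higher: Timp3 (-2.32), Timp2 (-1.60), Mmp2 (-0.89) and Mmp14 (-0.56). Of the TNF, interleukin-1 and NF-kB list 2 of 8 were higher, C1qa (1.11) and the receptor Il1r1 (1.03). The share of all genes called under vehicle was 12.7% for higher and 29.5% for lower. The A2 list had 3 of 9 higher (Cd109 1.63, Ptgs2 1.45, Emp1 0.60) and 2 lower (Sphk1 -1.63, Clcf1 -0.52), and the A1 list 1 of 12 higher (Fkbp5 0.53) and 3 lower (H2-T23 -0.97, Fbln5 -0.93, Ggta1 -0.68). Of the 5 filament partners 2 were lower, Plec (-0.82) and Nes (-0.61). Under quantile scaling Clcf1 turned to 0.06 and the others kept their sign, while Socs3, Mmp2, Mmp14, Nes, Fbln5 and Ggta1 were no longer called. Quantile scaling also added calls: the A1 list then had 4 higher and 2 lower, with Psmb8, an immunoproteasome subunit (0.86), among those added higher and the class I MHC gene H2-D1 (-0.93) added lower, and the A2 list had 6 higher and 1 lower, with Ptx3, pentraxin 3 (0.94), among those added. The list medians then were -0.20 for gp130 and STAT3, -0.32 for the metalloproteinases and 0.11 for A1, against 0.04 over all genes. Without the 6 few-gene libraries the A1 list had 4 higher and 4 lower, the A2 list 5 higher and 1 lower, and the TNF, interleukin-1 and NF-kB list had 3 of 8 higher and 4 lower. More of all genes were also called without these libraries, as given below. The 12.7% and 29.5% are therefore not the background of these counts, nor of those under quantile scaling, whose share of all genes is not given here. Microglia genes summed to 186 to 396 FPKM in hippocampus and 143 to 213 FPKM in hemisphere. Meningeal fibroblast genes summed to 3.24 to 25.3 FPKM in hippocampus and 19.1 to 44.0 FPKM in hemisphere, and the part of these cells in the list values was not tested.

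Genes whose levels followed those of single members most closely were sought over the 24 hemisphere libraries, as the smallest root mean square difference after each gene was scaled to its own SD, among 13598 protein-coding genes. For Gfap these were Fcgrt (0.484 SD), Uqcc3 (0.510) and C1qc (0.528). For Vim they were Hpcal1 (0.488), H2afv (0.538) and Lmf2 (0.571), and for Serpina3n Acta2 (0.539), Fkbp10 (0.567) and Nnat (0.568). Lcn2 was most like Lcp1 (0.838), Ppcdc (0.850) and Ngp (0.885). Cd44 had En2 (0.677), Maco1 (0.726) and Fibin (0.741), S1pr3 had Tmem268 (0.612), Ctc1 (0.673) and Ivd (0.673), and Timp1 had Tsc1 (0.756), Col5a2 (0.764) and Eif4enif1 (0.775). Among the 8 genes that passed the filter, which leaves out Osmr, the closest pair was Gfap and Serpina3n (0.790), and none of the 8 was among the nearest 3 of another.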

How the data were processed

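Gene FPKM values of 48 libraries were used as the authors deposited them; total RNA, the sequencing provider and the treatments are given per the labels' protocols, and GRCm38 (mm10) and DESeq 1.10.1 per the submitters' processing notes. Which aligner and counter were run, and whether strand was used, is not given in the sources used here. Every value column was matched to 1 library by its label. FPKM values stepped in whole reads (99.998% within 0.1 read), which gave the read totals, 1.21 to 23.5 M; the totals limit what can be seen of genes under 1 FPKM. Tests were two-sided in limma 3.58.1 under R 4.3.3, with a trended and robust prior, on log2(FPKM + 0.5), with 1 mean per group and no other covariate, after a filter of 0.5 FPKM in at least 6 libraries, and p-values were adjusted by Benjamini-Hochberg over all genes passing it. Comparisons within a region used its 24 libraries and those between regions all 48. The script was tested on simulated data. Tables and figures used python 3.11.15, pandas 2.3.3 and matplotlib 3.10.9. Alternatives were other pseudocounts, filters and scalings, library weights, a replicate block, fits of only the groups compared, and leaving out each library; quantile scaling without the few-gene libraries and the ratio to astrocyte identity genes were added after seeing the data. Correlations of same-numbered libraries showed no clear pairing, and the labels do not say whether the numbers pair them. Dixon's critical value for 6 samples was 0.625.

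The 9 genes and all lists were chosen with earlier results of these data known. All 9 are named, with the 2 genes furthest from 0 of each list described for hemisphere, where none was called, and the 3 nearest genes of each of the 8 genes that pass the filter. The nearest genes of Cp are not reported here. List genes called between regions fall outside that rule and were named after their values were seen. Gene positions in the table equal those of GENCODE M21, and promoters come from RefSeq on GRCm38.p6.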

Additional observations from a re-analysis of the deposited data

Results flagged for a closer look

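In 8 of the 72 combinations of gene and group, 1 library stood apart from the other 5 by Dixon's criterion; chance gives such a library in about 1 of 20 groups. In hemisphere, Gfap was 113.9 FPKM in angiotensin II replicate 6 and 70.7 to 83.6 FPKM in the other 5. In the same region Cd44 was 0.417 FPKM in vehicle replicate 2 (0.683 to 0.771 FPKM in the others) and S1pr3 was 2.71 FPKM in vehicle replicate 4 (1.92 to 2.13 FPKM in the others). In hippocampus, Gfap was 151.8 FPKM in angiotensin II + hydralazine replicate 3 against 102.2 to 114.1 FPKM, and Serpina3n was 44.3 FPKM in angiotensin II replicate 2 against 36.6 to 38.7 FPKM. The remaining 3 lay in few-gene hippocampal libraries. There, angiotensin II replicate 3 had 0.862 FPKM of Cd44 (0.261 to 0.413 FPKM in the others) and 0.769 FPKM of S1pr3 (1.67 to 2.09 FPKM in the others), and angiotensin II + hydralazine replicate 5 was listed at 0 for Osmr (0.189 to 0.230 FPKM in the others).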

How the results depend on the processing

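Of 754 alternative counts of how many of the 9 genes were called over 17 comparisons, 743 stayed within 1.5 times the reported count, among them the 0 calls of the 9 genes in all 12 comparisons within a region. In the regional comparison under angiotensin II, the 4 calls became 2 with a pseudocount of 0.1, 1 under quantile scaling and 2 under quantile scaling without the few-gene libraries. Under angiotensin II + hydralazine the 4 calls became 2 with a filter at 1 FPKM, 2 under quantile scaling and 2 without the few-gene libraries as well. Under vehicle + hydralazine the 4 became 2 and 2 under those scalings. Under vehicle the 5 became 3 with the filter at 1 FPKM and 2 and 2 under those scalings. The higher filter tests fewer genes; for the scalings the cause was not tested. Of the calls under quantile scaling, 1 under angiotensin II + hydralazine and 1 under vehicle were reported calls that were kept (Serpina3n), and the other in each was a gain of Lcn2; this was so without the few-gene libraries too.

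Counts over all genes moved more. For angiotensin II against vehicle in hemisphere the 12 calls became 38 with library weights, 4 with no filter and 2 when only the groups compared were fitted, and ran from 0 to 20 with single libraries left out; leaving out replicate 4 of the angiotensin II group, or either of replicates 5 and 6 of the vehicle group, gave 0. Leaving out vehicle libraries 2, 3 and 4 gave 3, 20 and 6, and angiotensin II library 5 gave 6. With a replicate block the calls were 5, and 1 each for hydralazine against vehicle and both drugs against hydralazine in hemisphere. With library weights the 0 calls became 102 for both drugs against vehicle and 1 against angiotensin II in hemisphere, 6 for both drugs against hydralazine in hippocampus and 3 for the region difference of the angiotensin II response. That last count was 1 under quantile scaling, in the fit of only the groups compared and without the few-gene libraries. Between the regions, the 6526 genes called under angiotensin II, 7473 under both drugs and 7442 under vehicle became 12764, 12827 and 12483 with library weights and 10833, 11709 and 11209 without the few-gene libraries. Under vehicle + hydralazine the 8949 became 5222 when only the groups compared were fitted. For these the cause was not tested.

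Of 1574 single-gene values over 28 results, 1502 kept their direction and their side of the threshold. Quantile scaling turned the regional log2 fold change of Cd44 under angiotensin II (0.052) and under vehicle + hydralazine (0.0116), of Gfap (-0.0015) and Cp (0.0059) under both drugs, and of Timp1 under vehicle + hydralazine (0.2054, or 0.168 without the few-gene libraries). The regional value of Vim under vehicle turned to 0.0324 without the few-gene libraries, 0.0867 with quantile scaling as well and 0.1774 as a ratio to astrocyte identity genes, and ran from -0.2179 to 0.0092 with each library left out in turn. In hemisphere, angiotensin II against vehicle, Vim ran from -0.018 to 0.089 with each library left out, was -0.018 without angiotensin II replicate 6 of both regions and -0.0216 as the ratio, and Cd44 was 0.0172 with library weights. For all of these the cause was not tested.

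Same-numbered libraries showed little common deviation (median correlation 0.004 within hemisphere, 0.068 within hippocampus and -0.009 between the regions of a treatment). In hippocampus 10 of 36 same-numbered pairs exceeded 0.1, as did 25 of 180 pairs of different numbers. Angiotensin II replicate 6 had the lowest mitochondrial share of reads of each region (2.77% in hemisphere and 5.74% in hippocampus). Whether these came from the same mouse is not given in the labels. A replicate block left all 17 counts of the 9 genes within 1.5 times, and the 2 calls it ended were those of Timp1 under angiotensin II (-0.6073) and both drugs (-0.6090). Low read counts limit the genes under 1 FPKM most, with 0 to 22 reads a library for Timp1. What left the few-gene libraries with few genes and with the values at 0 was not tested.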
